A study of Mus musculus with 18 samples.

Results

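The wild-type (WT) embryonic mouse ventricle at E14.5 was described from the 3 WT libraries, replicates 1, 2 and 3, of a series of 18 polyA RNA-seq libraries made to study Irx3 and Irx4, a pair of Iroquois homeobox transcription factors, in the ventricular wall. The members were chosen by genotype label alone, and the other 15 libraries were labelled Irx3KO (3), Irx4KO (3), heterozygous for both genes (3) or knockout for both genes (6). Dissected ventricles were frozen, RNA was purified on PureLink columns and accepted at an integrity number above 8.5, and 1 to 2 µg went into libraries made with the NEBNext Ultra Directional kit. The WT label names no strain, littermate or transgene. No label says whether the libraries came from separate embryos or from pooled ones, so every SD (n = 3) covers differences among the 3 libraries whatever their origin. Levels are in TPM, a transcript's share of a library after scaling for its length, summed over the transcripts of each gene and averaged over the 3 libraries. Since TPM is scaled for length, levels of different genes are set side by side below. Short non-coding fragments, transcripts tied to no gene and near-identical copies can still shift a gene's level and its rank. Where 3 values are given in a row, they are WT 1, WT 2 and WT 3 in that order.

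At this stage the mouse ventricle consists of beating cardiomyocytes arranged as an outer compact wall and inner trabeculae, lined by endocardium and covered by epicardium, with cushion mesenchyme at its base and young coronary vessels in its wall. Heart muscle contracts when calcium released from the sarcoplasmic reticulum binds troponin on the thin filament and lets myosin heads of the thick filament pull on actin. Many of these proteins come from small gene families of which the fetal heart, the adult heart and skeletal muscle use different members.

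The 3 libraries held 43472242, 40621857 and 43498830 estimated counts. A floor of 3 estimated counts stood for between 0.0941 and 0.102 TPM for a transcript with an effective length of 1000 bases, and for between 0.0188 and 0.0205 TPM at 5000 bases. This floor covers counting error only. Pearson's r of log2(TPM + 1) between pairs of the 3 libraries across genes was 0.994 to 0.996, over genes that are not independent replicates. Summed Y-linked genes stood at 128, 138 and 1.31 TPM in WT 1, 2 and 3. Transcripts tied to no gene held 7.90%, 8.06% and 8.27% of the TPM, so the level of a gene with such a transcript is a lower bound. Genes with a longest transcript above 5000 bases stood lower in WT than in the 12 libraries other than WT and DKO 5, 7 and 10. DKO is the knockout for both genes. The median log2 difference of those 12 from the WT mean was 0.15 to 0.35 over 1400 genes. In DKO 5, 7 and 10 it was -0.244, -0.128 and 0.0636. The part of this length difference in any level below was not tested.

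The largest of the gene classes set apart in WT ventricle RNA were those of oxidative phosphorylation, protein synthesis and contraction. Of 28563 genes in the tables, 13575 (47.5%) reached a mean of 1 TPM, among them 12745 of 20934 protein-coding genes (60.9%), and 13026 genes reached it in all 3 libraries. The number of genes fell to 8478 (29.7%) at 10 TPM, 1233 at 100 TPM and 115 at 1000 TPM. In all 3 libraries 7413 genes were at 0. Counts of list members below are to be read against these shares, as the lists were chosen with earlier results known. The 10 most abundant genes took 17.4 ± 1.05% of the TPM, the 50 most abundant 30.1 ± 1.52%, and the 1000 most abundant 63.3 ± 0.869% (SD, n = 3). The share of the 50 most abundant was 19.03% over nuclear transcripts tied to a gene and 17.2% by estimated counts.

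Genes outside the classes held 51.2, 53 and 53.3% of the TPM. Among the classes, the 13 protein genes of the mitochondrial genome were the largest block, at 19.6, 17.2 and 17.1% of the TPM. Genes with a ribosomal protein symbol, 298 with the pseudogenes so named, followed at 8.09, 8.99 and 8.59%. Pseudogenes under other symbols were not counted in this class. The 46 sarcomere genes held 5.38, 5.41 and 5.27%. The 99 nuclear respiratory chain genes held 4.7, 4.75 and 4.75%, and the 28 gene models of glycolysis held 0.998, 1.06 and 1%. Globin messages, which belong to blood cells inside the tissue, held 2.14, 1.58 and 1.72% and were the most uneven class. In bulk tissue, fewer cells of a type and less RNA per cell cannot be told apart, here or in any marker level below.

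**Figure D1:**
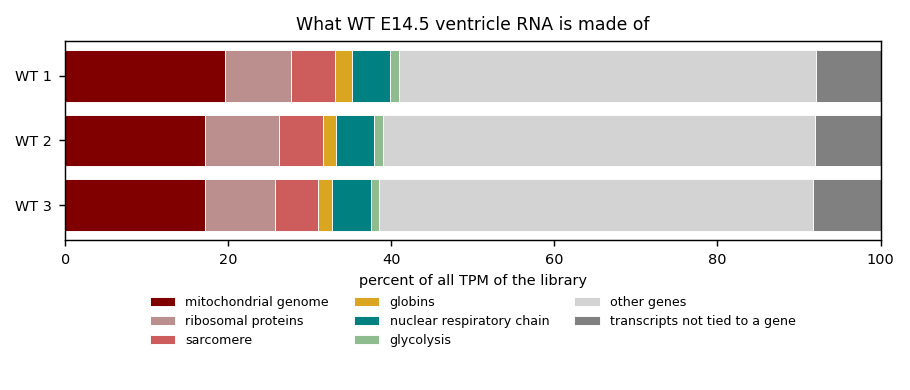
Share of all TPM (x axis, percent) by gene class in each of the 3 WT libraries (rows); grey segments are all other genes and transcripts tied to no gene. Mitochondrial messages ran from 17.1% to 19.6% and sarcomere genes from 5.27% to 5.41%.

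Of the 25 genes with the highest mean, 13 were mitochondrial, 5 sarcomeric and 3 globins, and the others were Atp5b, a subunit of the mitochondrial ATP synthase, the translation factor Eef1a1, Tpt1, and a pseudogene whose values equalled those of mt-Nd4l. That pseudogene, Gm10222, and mt-Nd4l each stood at 5109.9 TPM, and fragments of near-identical copies cannot be assigned to one of them. Tpt1 was at 3805 TPM, of which protein-coding transcripts held 1446 TPM. The highest gene was mt-Co2, a subunit of cytochrome oxidase, at 30289.8, 25472 and 25337 TPM. It was followed by mt-Atp8, an ATP synthase subunit, at 24795, 26482 and 25272 TPM, a range that overlapped that of mt-Co2. Estimated counts were only 29738 to 31268 for mt-Atp8, against 345710 to 433607 for mt-Co2. The floor of 3 counts stood for 2.61 TPM in mt-Atp8 and 0.221 TPM in mt-Co2, so the place of mt-Atp8 rests on the scaling for length. Then came mt-Co1 and mt-Co3 at 23883 ± 2093 TPM and 23197 ± 1779 TPM. WT 1 was the highest library for 12 of these 13 messages, all but mt-Atp8.

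Outside the mitochondrial genome the ventricle's most abundant message was Myl2, the ventricular regulatory light chain of myosin, at 14832, 14909 and 15094 TPM (mean 14945 ± 135 TPM). It stood above Actc1, the next nuclear gene, in every library. Actc1, cardiac alpha-actin, stood at 7833, 8307 and 7217 TPM, and Tnnt2, cardiac troponin T, at 6665, 6121 and 7204 TPM. The ranges of Actc1 and of the elongation factor Eef1a1, at 7205, 7490.3 and 7289 TPM, overlapped. Below them came Myl3, the ventricular essential light chain, at 4051 ± 89.5 TPM, Tpm1, striated tropomyosin, at 2664 ± 175 TPM, Myl4, the atrial and fetal essential light chain, at 2628 ± 220.2 TPM, and Tnni1, the slow skeletal and fetal troponin I, at 2379 ± 47.1 TPM. Ranges of Tpm1, Myl4 and the ribosomal genes Rplp1 and Rps27rt overlapped, so their order is not fixed by these libraries. The natriuretic peptide gene Nppa and the fetal growth factor gene Igf2 were the highest genes encoding secreted signals, at 2232 ± 324 TPM and 2016 ± 213 TPM.

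**Figure D2:**
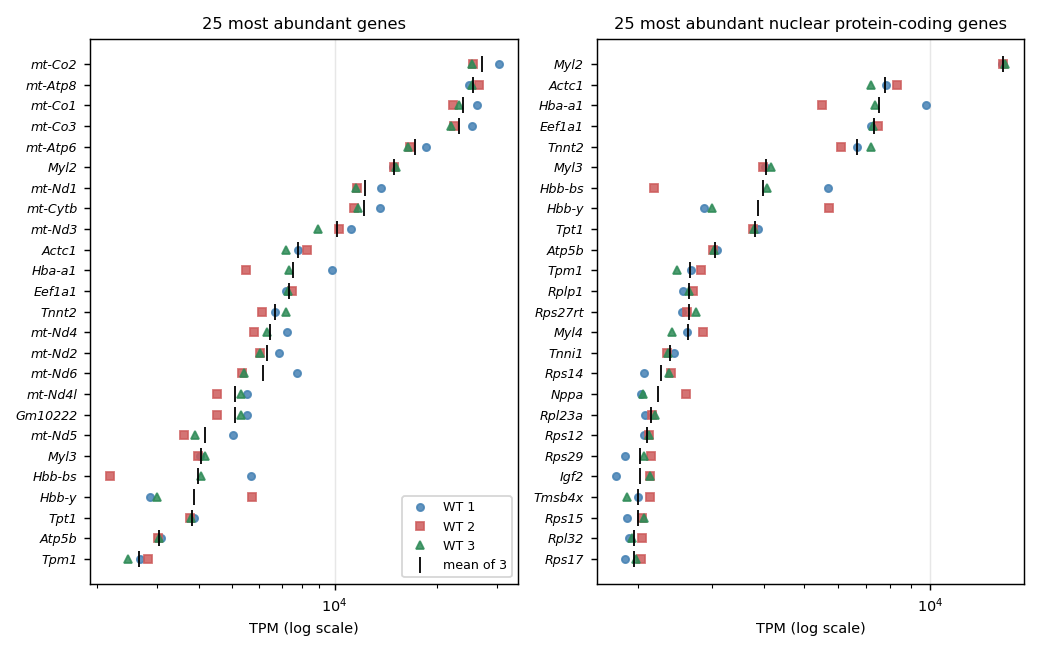
TPM (log axis) of the 25 most abundant genes and, at right, of the 25 most abundant nuclear protein-coding genes; symbols are the 3 WT libraries and black ticks their mean. Myl2 points coincide near 14945 TPM, while Hbb-bs runs from 2185 to 5696 TPM.

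Within contractile gene families, 1 member usually held most of the family's TPM, and the main exceptions were troponin I and the essential light chains. Myh7, the slow beta-myosin heavy chain that predominates in the fetal mouse ventricle, stood at 1457, 1420.3 and 1575 TPM, and Myh6, the alpha-chain of the adult mouse ventricle, at 415, 454 and 398 TPM. Myh7 thus made up 77.8, 75.8 and 79.8% of the pair, and the lowest Myh7 library was far above the highest Myh6 library. Myh7b, a further heavy chain gene, was listed at 116 TPM, of which protein-coding transcripts held 42.2 TPM. Myl2 held 92.8, 89.8 and 94.3% of the regulatory light chains. Its atrial counterpart Myl7 was at 1141, 1667 and 905 TPM, highest in WT 2, and the fast skeletal Mylpf at 14.8 TPM. Among essential light chains Myl3 held 60.3 ± 2.58% and Myl4 39.1 ± 2.42%, so the atrial and fetal form was more than a minor species. The fast skeletal Myl1 was at 49.5, 49.3 and 26.8 TPM, lowest in WT 3.

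On the thin filament, Actc1 held 90.6, 89.7 and 90.6% of 4 muscle actins. Acta2, the smooth muscle actin that embryonic cardiomyocytes also make, was at 737, 875 and 675 TPM, and Acta1, the skeletal alpha-actin, at 72.7, 75.7 and 64.5 TPM. Tnnt2 held 92.1, 90.6 and 93.5% of troponin T, with the slow skeletal Tnnt1 at 566, 627 and 498 TPM. Troponin I was split between 2 genes: Tnni1, the fetal form, at 2433, 2345 and 2359 TPM, and Tnni3, the cardiac form that replaces it after birth, at 1470.4, 1264 and 1483 TPM. Tnni1 exceeded Tnni3 in each library and held 62.3 ± 1.76% of the family. The fast skeletal Tnni2 was at 26.4, 41.9 and 39.7 TPM. Tnnc1, cardiac and slow troponin C, was at 1614, 1549 and 1492 TPM, but a transcript tied to no gene had the same length and the same estimated counts in all 18 libraries, and the pair summed to 3166, 3039 and 2937 TPM. Tpm1 held 86.1 ± 0.976% of tropomyosin, and Tpm4, Tpm2 and Tpm3 were at 203, 134 and 90.2 TPM. Of the Tpm3 level, protein-coding transcripts held 22.4 TPM.

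Among the scaffold genes of the sarcomere, Csrp3, Mybpc3 and Actn2 had the highest means. Mybpc3, cardiac myosin-binding protein C, was at 822, 793 and 855 TPM, and its skeletal relatives Mybpc1 and Mybpc2 were at 4.67 and 0.734 TPM. Titin (Ttn), the giant spring of the sarcomere, was at 45.4, 44.6 and 39.7 TPM, and the M-band gene Myom1 at 212 ± 7 TPM, while Myom2 was at 8.84, 2.53 and 10.3 TPM, lowest in WT 2. At the Z-disc, Csrp3, muscle LIM protein, was at 970.0, 949 and 799 TPM, and Actn2, the alpha-actinin that crosslinks actin there, at 708, 689 and 705 TPM. Ankrd1, a stretch-responsive titin-associated protein, was at 626, 524 and 321 TPM, and Tcap, the titin cap, at 121, 107 and 86.4 TPM. Both were lowest in WT 3. The filament-crosslinker Flnc was listed at only 0.436 TPM from 3 transcripts, and Xirp2 and Myot at 0.108 and 0.0809 TPM.

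**Figure D3:**
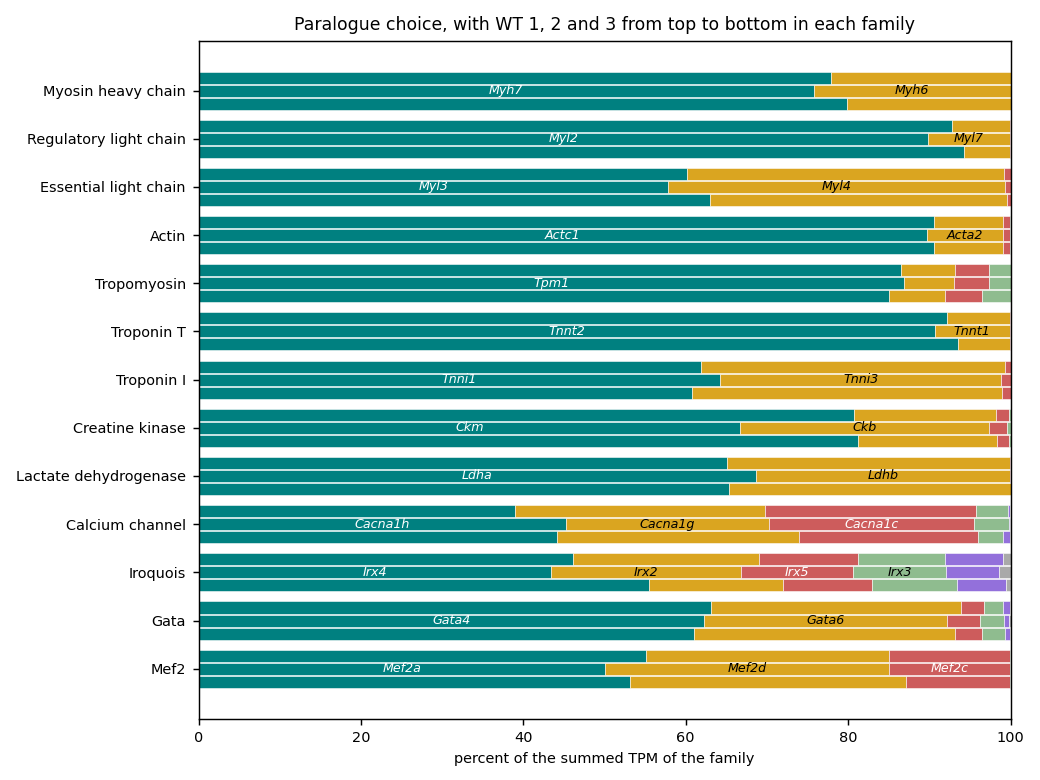
Share of each family's summed TPM (x axis, percent) held by each paralogue, with 3 bars per family for WT 1, 2 and 3 from top to bottom; segments run from the highest to the lowest mean and those wide enough carry the gene's name. Myh7 held 75.8% to 79.8% of the cardiac myosin heavy chains and Tnni1 60.8% to 64.2% of troponin I.

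Below the level of the gene, contractile genes differed in how far 1 transcript carried them. For 13 of 46 contractile genes the tables list a single transcript, so no choice could appear. Of the other 33, 14 had a leading transcript with at least 90% of the gene's TPM, 15 one between 50% and 90%, and 4 one under 50%. The leading transcript was annotated as protein coding for 43 genes. The exceptions were Myh7b and Nebl, led by short non-coding fragments, and Smpx, led by a transcript annotated for nonsense-mediated decay. Shares of transcripts are estimates of kallisto from fragments that mostly fit several transcripts, not counts of splice junctions.

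Sequences are shown for alternative exons of 2 genes because each separates a developmental or muscle-type form of its protein. They were read by transcript identifier from the GENCODE M21 transcripts. In Tnnt2 the 30 bases in capitals are the exon known from embryonic troponin T, which adds an acidic stretch near the start of the protein, and the lower-case letters are 15 flanking bases on each side. In the Pkm pair, 2 exons of equal length replace each other, and capitals mark the bases at which they differ (64 of 167, 61.7% identical).
Tnnt2 exon with flanks: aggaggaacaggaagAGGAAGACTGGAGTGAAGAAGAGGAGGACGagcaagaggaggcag
Pkm upstream exon: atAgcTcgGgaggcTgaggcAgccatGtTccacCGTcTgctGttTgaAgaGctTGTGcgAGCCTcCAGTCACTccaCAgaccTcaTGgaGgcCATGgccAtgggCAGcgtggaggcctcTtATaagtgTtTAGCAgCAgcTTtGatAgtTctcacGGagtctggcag
Pkm downstream exon: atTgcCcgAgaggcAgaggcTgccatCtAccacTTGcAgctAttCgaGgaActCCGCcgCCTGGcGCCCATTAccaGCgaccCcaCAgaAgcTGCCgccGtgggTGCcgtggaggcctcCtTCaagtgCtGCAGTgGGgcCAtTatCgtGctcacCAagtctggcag

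The Tnnt2 transcripts that hold these 30 bases, Tnnt2-204 and Tnnt2-203, made up 86.0%, 88.8% and 87.6% of Tnnt2 TPM (mean 87.5 ± 1.41%). Tnnt2-204 alone held 73.2, 74.1 and 68.7%, and Tnnt2-203 12.8, 14.7 and 19%. Tnnt2-201, which skips the exon, held 10.9, 8.84 and 9.9%. Tnnt2-204 has 1097 bases in the tables and 1112 in the annotation, so the exon assigned to it is that of the annotation, and the share of exon-bearing transcripts rests on it. The tables list 4 of the 15 Tnnt2 transcripts of the annotation, so the share is among those 4.

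Pkm, pyruvate kinase of glycolysis, has an upstream exon that gives the M1 form of adult muscle and a downstream exon that gives the M2 form of proliferating and embryonic tissue. Pkm-202, with the upstream exon, held 74.5, 69.7 and 73.3% and Pkm-201, with the downstream exon, 25.5, 30.3 and 26.7% of Pkm TPM, so both forms were present and the M1 exon led in each library. The tables list 2 of 11 annotated Pkm transcripts, and both have other lengths there (2221 and 2192 bases) than in the annotation (2041 and 2432), so the exons assigned to them are those of the annotation.

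Other contractile genes also used several forms. Mybpc3-203 held 87.2, 78.6 and 84.6% and Mybpc3-202 12.6, 21.1 and 15.2% of Mybpc3, with WT 2 apart from the other libraries. Tpm1-205 held 90.2 ± 0.36% of Tpm1 among 21 listed transcripts. Ttn-201 held 62.5 ± 3.6% of Ttn TPM but 91.1% of its estimated counts, because short Ttn fragments weigh more once counts are divided by length. Among genes chosen after their values were seen, Slc8a1, the sodium-calcium exchanger, was split between Slc8a1-203 (56.8 ± 4.43%) and Slc8a1-201 (42.1 ± 4.56%), and Igf2-201 held 75.2 ± 1.86% of Igf2.

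Calcium handling genes were led by the inhibitor of the calcium pump. All 25 listed genes reached 1 TPM, against 60.9% of protein-coding genes. Pln, phospholamban, which restrains the calcium pump of the sarcoplasmic reticulum, was at 1224, 1061 and 1142 TPM, and Atp2a2, that pump, at 546, 523 and 522 TPM. Each library held more Pln than Atp2a2 message, though the tables list only 2 of 6 annotated Pln and 1 of 5 annotated Atp2a2 transcripts. Sln, sarcolipin, the atrial and skeletal inhibitor, was at 19.2, 8.97 and 6.19 TPM, so Pln held 99 ± 0.528% of the inhibitors. Ryr2, the cardiac release channel, was at 19.9, 17.9 and 17.8 TPM, with Ryr1, the skeletal channel, at 0.0319 TPM. Casq2, the calcium buffer of the reticulum, was at 298, 181 and 259 TPM, lowest in WT 2, and Slc8a1 at 217, 227 and 226 TPM. The chaperone Calr, which the embryonic heart is known to need, was at 566 ± 37.7 TPM, and Atp1b1, a beta subunit of the sodium pump, at 411 ± 19.7 TPM.

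Ion channel genes had far lower levels than contractile genes. Of 36 potassium channel genes found, 24 reached 1 TPM (66.7%, near the 60.9% of protein-coding genes) and 7 reached 10 TPM. Kcne1, the accessory subunit of the slow delayed rectifier, was at 151, 103 and 165 TPM, while its pore partner Kcnq1 was at 4.39, 4 and 7.72 TPM. Kcnh2, the rapid delayed rectifier that ends the action potential, was at 55, 61.2 and 63.6 TPM. Kcnk3, a background leak channel, was at 32.5 ± 5.69 TPM and Abcc9, the regulatory subunit of ATP-sensitive channels, at 28.9 ± 3.25 TPM. Kcnj5 and Kcnj3, partners in the acetylcholine-activated channel, were at 21.7 ± 0.958 TPM and 8.45 ± 1.55 TPM, and the inward rectifiers Kcnj2 and Kcnj12 at 10.4 ± 1.08 TPM and 6.34 ± 0.995 TPM. The transient outward channels Kcnd2 and Kcnd3 and their partner Kcnip2 were low, at 3.46, 1.35 and 2.09 TPM.

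Hcn4, the pacemaker channel of the sinus node and early heart, was at 4.94, 6.2 and 5.3 TPM and held 78.8 ± 4.3% of its family, with Hcn2 at 0.398 TPM.

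Among the alpha subunits of calcium channels, Cacna1h, Cacna1g and Cacna1c had the highest means. Cacna1h and Cacna1g, the T-type channels of the embryonic heart, were at 32.2, 34.2 and 45.9 TPM and 25.4, 18.9 and 30.9 TPM, and Cacna1c, the L-type channel of excitation-contraction coupling, at 21.4, 19.1 and 23 TPM. Over protein-coding transcripts alone the order turned, with Cacna1c at 21.2, Cacna1h at 15.5 and Cacna1g at 6.24 TPM, since transcripts not annotated as protein coding carried much of both T-type genes. By estimated counts too Cacna1c led the L-type and T-type family, at 41.2%, with Cacna1h at 35.1% and Cacna1g at 15.7%. The tables list 5 of 27 annotated Cacna1c transcripts, but all 10 of Cacna1h and all 16 of Cacna1g. The level of Cacna1c may thus be a lower bound. The skeletal Cacna1s was at 0.419 TPM. The accessory subunits Cacna2d2, Cacna2d1 and Cacnb2 were at 23.3 ± 1.57 TPM, 17 ± 0.761 TPM and 15.3 ± 0.672 TPM.

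Gap junction genes were led by Gja1, at 262, 265 and 222 TPM, then Gja5, the connexin of trabeculae and the later conduction system, at 88.9, 94.2 and 107 TPM, and Gjc1, the connexin of the early heart tube, at 69, 68.1 and 74.5 TPM. The 3 ranges did not overlap. Gja4, a connexin of arterial endothelium, was at 18.5, 17.6 and 25.5 TPM. Connexins of epithelia, Gjb1, Gjb2 and Gjb6, were at or below a mean of 0.0145 TPM.

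Transcription factors were broadly present: 97 of 103 listed genes (94.2%) reached 1 TPM, against 60.9% of protein-coding genes. Of the 103 genes, 67 reached 10 TPM, and the median member was at 16.6 TPM. The 10 highest were Hopx, a homeodomain-only cofactor of the heart, at 223, 209 and 268 TPM, Gata4, a zinc-finger factor of cardiac specification, at 149, 145 and 151 TPM, Smyd1, a muscle-restricted methyltransferase, at 157, 142 and 113 TPM, Hif1a, the hypoxia factor, at 127 ± 8.46 TPM, the helix-loop-helix inhibitors Id2 and Id3 at 126 ± 20 TPM and 114 ± 9.35 TPM, Hey2, a Notch-related repressor of the compact ventricular wall, at 106 ± 5.73 TPM, the T-box factor Tbx20 at 97.4 ± 9.13 TPM, Mef2a at 97.3 ± 10.9 TPM and Sox4 at 90.2 ± 8.89 TPM. Ranges of neighbours in this order overlapped from Gata4 down, and those of Hopx and Gata4 did not. Nkx2-5, the cardiac homeobox factor, was at 80.3, 84.1 and 89.7 TPM, Hand2, a factor of the right ventricle and the endocardium, at 57.4, 72.4 and 69 TPM, and its relative Hand1, of the left ventricle, at 14.8 ± 2.37 TPM. Tbx5, of the left ventricle and atria, was at 18.5 ± 1.08 TPM.

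Among Iroquois genes Irx4, a ventricular factor, was the highest, at 49.8, 48.9 and 80.8 TPM, and WT 3 lay apart from WT 1 and WT 2. Irx2 followed at 24.8, 26.4 and 24.1 TPM, then Irx5 at 13.2, 15.6 and 15.8 TPM and Irx3, a factor of trabeculae and the conduction system, at 11.5, 12.9 and 15.3 TPM. Irx5 and Irx3 overlapped in range. Irx1 was at 7.94 ± 0.755 TPM and Irx6 at 1.16 ± 0.438 TPM. Irx4 held 46.1, 43.4 and 55.5% of the family. Apart from Irx5 and Irx3, no neighbours in this order of TPM overlapped. By estimated counts, however, Irx2 held 11.7% of the family, below Irx5 and Irx3 at 13.8% each. Protein-coding transcripts held 20.3 TPM of the Irx2 level.

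Gata4 held 62.1 ± 1.06% and Gata6 31 ± 1.16% of the Gata family, with Gata5, an endocardial member, at 8.07 ± 1.39 TPM and Gata1, the erythroid member, at 0.279 TPM. Mef2a held 52.8 ± 2.5%, Mef2d 33 ± 2.63% and Mef2c 14.3 ± 1.15% of Mef2 TPM. Only 2 of 31 annotated Mef2c transcripts are in the tables, so its level of 26.2 TPM is a lower bound. Factors of other regions of the heart were low, with Isl1 of the second heart field at 2.47 TPM and Shox2 of the sinus node at 1.02 TPM. Tbx2 and Tbx3, repressors in the atrioventricular canal and conduction tissue, were at 8.97 ± 1.32 TPM and 5.75 ± 0.331 TPM.

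**Figure D4:**
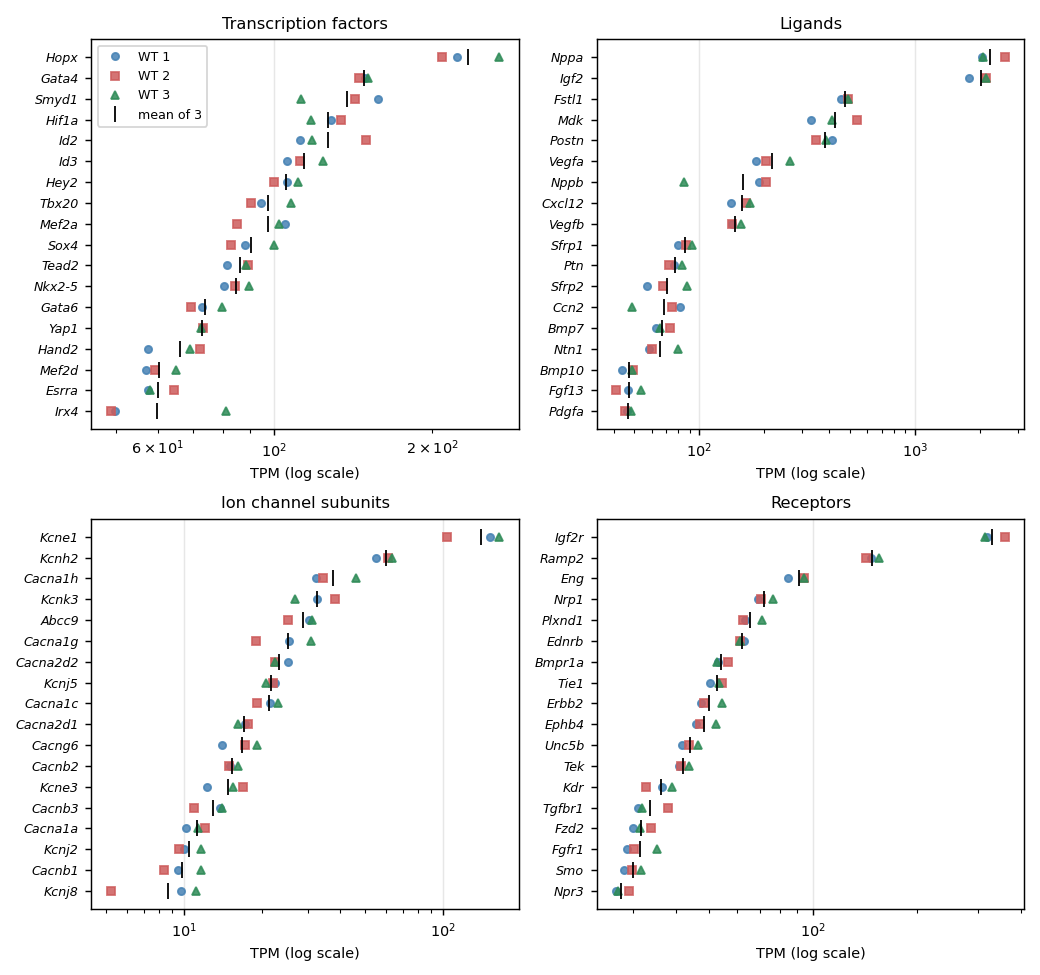
TPM (log axes) of the 18 highest transcription factors, ligands, subunits of potassium and calcium channels, and receptors; symbols are WT 1, 2 and 3 and black ticks their mean. Nppb and Irx4 each have 1 library, WT 3, far from the others.

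Secreted ligands were led by Nppa, at 2034, 2606 and 2057 TPM, and Igf2, at 1769, 2139 and 2138 TPM, whose ranges overlapped. Of 103 ligand genes found, 82 (79.6%) reached 1 TPM, against 60.9% of protein-coding genes, and 44 reached 10 TPM. Fstl1, a secreted glycoprotein of the epicardium and mesenchyme, was at 475 ± 20.2 TPM, Mdk, the growth factor midkine, at 329.5, 536 and 410.5 TPM, and Postn, a matricellular protein of cushions and fibroblasts, at 411, 347 and 386 TPM. Nppb, the second natriuretic peptide gene, was at 188, 204 and 84.6 TPM, with WT 3 lowest. Cxcl12, a chemokine for coronary endothelium, was at 158 ± 16.8 TPM, Vegfb at 146 ± 8.14 TPM and Sfrp1, a secreted Wnt antagonist, at 86.1 ± 6.56 TPM. Vegfa, the main angiogenic ligand, was listed at 182, 203 and 263 TPM, but its protein-coding transcripts held 35.9 TPM and a retained-intron fragment led.

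Ligands known for their part in growth of the ventricular wall were lower. Bmp10, a trabecular factor needed for myocyte growth, was at 43.9, 49.1 and 48.9 TPM, and Bmp7 at 67.1 ± 5.1 TPM. The Notch ligands Dll4 and Jag1 were at 11 ± 3.41 TPM and 10.4 ± 1.49 TPM. Efnb2, which acts in trabeculation, was at 28.7 ± 2.98 TPM, and Fgf9, an epicardial and endocardial mitogen, at 8.59, 10.2 and 11.2 TPM. Wnt5a and Wnt11 were at 23.6 ± 3.04 TPM and 9.21 ± 1.15 TPM, and Edn1 at 7.57 ± 0.785 TPM. Nrg1, the endocardial ligand of trabeculation, was listed at 0.0282 TPM, but only 1 of its 18 annotated transcripts is in the tables, so its level was not measured here.

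Receptors were of middling level, with 70 of 74 genes (94.6%) at 1 TPM or more, against 60.9% of protein-coding genes, and 2 above 100 TPM. Igf2r, which clears IGF2, was at 319, 360.3 and 315 TPM, and Ramp2, the partner of the adrenomedullin receptor, at 148, 143 and 155 TPM. The antisense gene Airn overlaps Igf2r and was listed at 67.4 TPM, and as the strand setting of the counting is not given, reads of these genes cannot be told apart. Eng, Nrp1, Plxnd1, Ednrb, Bmpr1a, Tie1, Erbb2 and Ephb4 completed the 10 highest, from 90.9 down to 48.3 TPM. Of the neuregulin receptors, Erbb2 was at 47.2, 48.3 and 54.5 TPM, Erbb4 at 6.11, 5.84 and 5.14 TPM and Erbb3 at 4.34 ± 0.686 TPM. Notch1 was listed at 14.8 TPM, of which protein-coding transcripts held 3.77 TPM. The receptor of apelin, Aplnr, was at 23.7, 10.2 and 22.3 TPM and its ligand Apln at 13.3 ± 0.882 TPM.

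Markers of the compact wall (9 of 9) and of trabeculae (11 of 12) reached 1 TPM, against 60.9% of protein-coding genes. Compact-wall markers Hey2, Mycn and Fzd2 were at 106 ± 5.73 TPM, 28.2 ± 3.41 TPM and 31.7 ± 1.92 TPM, and Prdm16 at 5.5, 3.35 and 6.35 TPM. Trabecular markers beside Nppa and Nppb included Cited1 at 246, 365 and 226 TPM, highest in WT 2, and Etv1 at 13.4 ± 2.21 TPM, while Cntn2, a marker of mature Purkinje fibres, was at 0.068 TPM. The summed trabecular list stood at 2684, 3396 and 2612 TPM and the compact list, nearly all Myl2 and Myh7, at 16614, 16662 and 17015 TPM. Atrial genes were not absent: Myl7 and Nppa were abundant, both being known in embryonic ventricles too, while the atrial factor Nr2f2 was at 10.7 ± 0.723 TPM, which veins also express, and its relative Nr2f1 at 3.35 ± 0.703 TPM.

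Fuel metabolism genes were of both kinds, with glycolysis summing to 9977, 10597 and 10039 TPM and fatty acid use to 3857, 3098 and 3791 TPM. Aldoa, Ldha, Pkm and Pgk1, enzymes of glycolysis, were at 1701 ± 28.7 TPM, 1378 ± 77.2 TPM, 1186 ± 58.8 TPM and 1180.5 ± 54.2 TPM. Ldha, the form that favours lactate production, held 65.1, 68.6 and 65.4% of lactate dehydrogenase against Ldhb of oxidative muscle. Gapdh was listed at 50.9 TPM, of which protein-coding transcripts held 3.1 TPM, and Tpi1 at 35.3 TPM. The tables hold 6 of 13 annotated Gapdh transcripts, so the glycolytic sum is a lower bound. Fabp3, the heart fatty acid carrier, was at 820.2, 670.3 and 724 TPM, and Cpt1b, the muscle gate for mitochondrial fatty acid entry, at 195, 171 and 207 TPM, above its liver form Cpt1a at 35.3 ± 4.95 TPM. Slc2a1, the fetal glucose transporter, was at 102, 151 and 104 TPM, and Slc2a4, the insulin-responsive one of adult muscle, at 32.5 ± 5.86 TPM. Ckm, muscle creatine kinase, was at 319.6, 160.1 and 311 TPM, and myoglobin (Mb) at 656, 393 and 702 TPM, both lowest in WT 2. Among cytochrome oxidase subunits with a liver and a heart form, Cox8a (1232 ± 33.1 TPM) exceeded Cox8b (151 ± 47.2 TPM), and Cox6a1 (678 ± 20.6 TPM) exceeded Cox6a2 (224 ± 20.2 TPM).

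Cell division genes were expressed throughout. Of 29 listed genes 27 reached 10 TPM, against 29.7% of all genes, and the 29 summed to 2667, 2953 and 2861 TPM. Cdk1, which drives mitosis, was at 246, 262 and 276 TPM, Top2a, an enzyme of dividing cells, at 125, 131 and 133 TPM, and Mki67 at 38 ± 1.9 TPM. Among D cyclins, Ccnd3 was at 236 ± 11.8 TPM, Ccnd2 at 102 ± 7.67 TPM and Ccnd1 at 49.6 ± 6.05 TPM. Of the inhibitors, the imprinted Cdkn1c was at 297, 412 and 321 TPM, and Cdkn2a at 0.0496 TPM.

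The non-myocyte cells of the wall were described through lists of their markers. All 20 endothelial markers reached 1 TPM. This count and those of the endocardial and lymphatic lists stand against 60.9% of protein-coding genes. Pecam1 and Cdh5, adhesion proteins of endothelial junctions, were at 81.1, 73.7 and 89.4 TPM and 101, 83.2 and 105 TPM, and the receptor Tek at 40.9, 41.4 and 43.7 TPM. The fatty acid carrier Fabp4, of coronary microvessels, was at 405, 159 and 442 TPM, with WT 2 under the level of either other library. The summed list was at 1309, 1044 and 1462 TPM, and Fabp4 made up most of the gap between WT 2 and WT 1. Cldn5, a tight junction protein, was also lowest in WT 2, at 19.6, 11.2 and 23.9 TPM, while Plvap, a protein of fenestrated vessels and endocardium, was highest there. Of 8 endocardial markers all reached 1 TPM. Npr3, a natriuretic peptide receptor of endocardium, was at 26.9, 29.3 and 27.1 TPM, Nfatc1, a factor of valve endocardium, at 13.9, 14.9 and 15.2 TPM, and Plvap at 47.4, 75.7 and 57.4 TPM. Of 7 lymphatic genes 6 reached 1 TPM, but Prox1, at 22.9 ± 0.732 TPM, is also a cardiomyocyte gene, and Lyve1, which embryonic macrophages share, was at 4.33 ± 1.14 TPM.

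Epicardial markers reached 1 TPM in 13 of 13 cases, against 60.9% of protein-coding genes. They summed to 200.3, 237 and 233 TPM. Tcf21, of epicardium and fibroblast precursors, was at 44.2, 40.4 and 45.8 TPM, Upk3b, a mesothelial gene, at 29.5, 42.5 and 43.8 TPM, Wt1, the epicardial zinc-finger factor, at 14.6, 14.49 and 16 TPM, and Aldh1a2, which makes retinoic acid, at 13.7, 15.7 and 17.8 TPM. Cushion and fibroblast genes were more abundant, with 16 of 16 at 1 TPM or more and a sum of 2540.1, 2248 and 2731 TPM. Col3a1, Col1a2 and Col1a1, fibrillar collagens, were at 424, 304 and 478 TPM, 247, 175 and 269 TPM and 221, 151 and 222 TPM, each lowest in WT 2. Dcn and Lum, small matrix proteoglycans, were at 145 ± 31.2 TPM and 97.1 ± 9.52 TPM, and Pdgfra, a receptor of mesenchyme, at 25.6 ± 2 TPM. Vim, which many non-myocyte cells share, was listed at 657 TPM and at 197 TPM over protein-coding transcripts.

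Smooth muscle and pericyte genes summed to 1528, 1751 and 1476 TPM, but Acta2 and Des, most of that sum, are also made by cardiomyocytes. Pdgfrb, Rgs5 and Cspg4, pericyte genes, were at 24, 22 and 28.6 TPM, 18.2 ± 5.69 TPM and 11 ± 0.511 TPM, and Tagln and Cnn1 at 86.4 ± 15 TPM and 92.8 ± 18.3 TPM. Myh11, the smooth muscle myosin that defines mature vessel walls, was listed at 0.0532 TPM with 1 of 4 annotated transcripts in the tables, so its level was not measured.

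Macrophage genes were at low levels, and summed to 132, 255 and 145 TPM. Of 21 genes 16 (76.2%) were at 1 TPM or more, against 60.9% of protein-coding genes. Csf1r, the receptor that maintains macrophages, was at 10.1, 14.53 and 11.3 TPM, C1qa, of the complement C1 complex, at 10.1, 23.1 and 11.5 TPM, and Lyz2, a lysozyme, at 38.2, 74.4 and 30.3 TPM. WT 2 was the highest library for each, and its sum lay above those of the 15 other-genotype libraries, at 81.5 to 146 TPM. Cd3e, of T cells, and Ly6g, of neutrophils, were at 0. For their longest listed transcripts the floor of 3 counts stands for 0.0843 and 0.78 TPM, and for more in any shorter one. The pan-leukocyte Ptprc was listed at 0.215 TPM from 1 of 13 annotated transcripts, which says nothing of its level.

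Erythroid genes had the highest sum of all lists of other cell types, at 21511, 15765 and 17288 TPM. Hba-a1, an adult alpha-globin, was at 9796, 5510.3 and 7368 TPM, and Hbb-bs, an adult beta-globin, at 5696, 2185 and 4062 TPM. Hbb-y, the embryonic beta-like globin of yolk sac red cells, was at 2878, 5726 and 3012 TPM. WT 2 held the most Hbb-y and the least Hbb-bs, so that Hbb-y made up 28.6, 66.6 and 36.4% of beta-like globins. The embryonic alpha-like Hba-x was at 183, 497 and 270.2 TPM and Hbb-bh1 at 44.4, 136 and 58 TPM, both likewise highest in WT 2. Hba-a1 and Hba-a2 are near-identical copies, so their split is uncertain. Platelet genes were low, with Pf4 at 8.96 ± 1.09 TPM.

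Genes that define nerve, skeletal muscle and neighbouring organs were low or at 0. Of 15 neural genes 6 (40%) and of 24 skeletal muscle genes 10 (41.7%) reached 1 TPM. Both shares lay below the 60.9% of protein-coding genes and near the 47.5% of all genes. These counts alone say little of either tissue. The neural genes included Erbb3, a neuregulin receptor, at 4.34 ± 0.686 TPM, and Ngfr, a neurotrophin receptor, at 3.25 ± 0.555 TPM, and Sox10 was at 0. The skeletal muscle genes at 1 TPM or more included Tnnt1 and Ckm, which the embryonic heart is known to make. The factors that define skeletal muscle, Myod1 and Myf5, were at 0.0131 and 0.0174 TPM, and Myog at 1.01, 0.814 and 1.36 TPM. Pax7 and the fast myosin Myh4 were at 0 (floor of 0.0182 and 0.0177 TPM for the longest listed transcript). No liver or lung gene of 13 reached 1 TPM, and their sum was 1.34, 1.12 and 1.61 TPM. Alb, of liver, was at 0 (floor of 0.0562 TPM for the longest listed transcript), and Sftpc, of lung, at 0.0751 TPM.

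**Figure D5:**
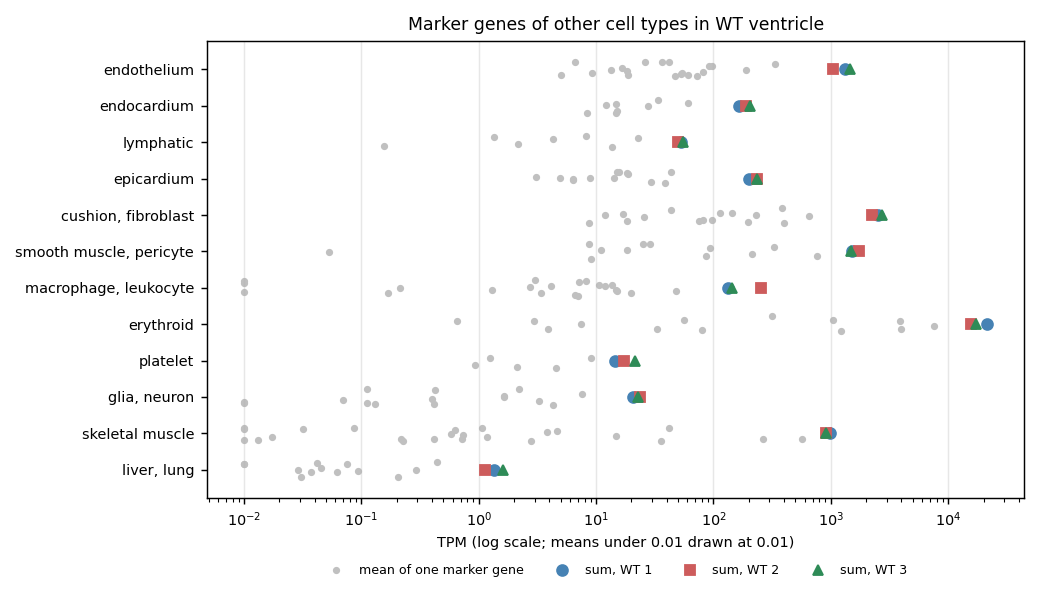
Marker genes of other cell types: grey points are the mean TPM of single markers and coloured symbols the summed TPM of the list in WT 1, 2 and 3 (log axis). Macrophage genes summed to 255 TPM in WT 2 against 132 and 145 TPM in WT 1 and 3, and liver and lung genes stayed below 2 TPM.

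The spread between the 3 libraries depended on the level. Over 8478 genes with a mean of at least 10 TPM, the median ratio of the highest to the lowest library was 1.11, 87.0% of genes stayed under a ratio of 1.25, and 75 genes (0.885%) reached 2. Of 5097 genes with a mean from 1 TPM to under 10 TPM, 10.4% reached a ratio of 2 and 47.9% stayed under 1.25. Of 7575 genes above 0 but under 1 TPM, 67.2% reached a ratio of 2 or were at 0 in some library. Over the genes of at least 10 TPM, the median SD of log2(TPM + 1) was 0.0777.

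Genes of the Y chromosome and gene models without a descriptive symbol were left out of the ranking of ratios. Among the 10 largest ratios of the remaining genes, ribosomal genes and their processed pseudogenes were 6: Rpl14-ps1, Rpl10a-ps1, Rpsa-ps10, Rps24-ps3, Rps3a1 and Rplp0. Rps3a1 was at 828, 28 and 873 TPM and Rplp0 at 85.8, 754 and 742 TPM, and since their copies are near-identical in sequence, these splits are uncertain. The other 4 were Spp1, osteopontin, made by activated macrophages among other cells, at 2.38, 27.2 and 2.75 TPM, Sfr1, of DNA repair, at 192, 36 and 47.4 TPM, Cytl1, a secreted protein from the endocardial list, at 34.7, 10.7 and 56.6 TPM, and Abhd17c, a depalmitoylating enzyme, at 10.4, 44.7 and 9.8 TPM. Spp1 and Abhd17c were high in WT 2 alone, Cytl1 low there, and Sfr1 high in WT 1 alone. With the same genes left out, 45 protein-coding genes outside the ribosome had a ratio of at least 2. The lowest library was WT 1 for 18, WT 2 for 21 and WT 3 for 6, and the highest was WT 1 for 9, WT 2 for 17 and WT 3 for 19. Eln, elastin of the outflow vessels and valves, was at 254, 294 and 595 TPM, highest in WT 3, the library in which Nppb was lowest.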

How the data were processed

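PolyA RNA of 3 WT E14.5 ventricle libraries was analysed. The other 15 libraries of the series gave ranges, the length differences from WT and the search for twin transcripts. For each library the authors deposited 1 table with estimated counts and TPM per transcript, as its header names them, beside the length and effective length. The tool was kallisto 0.42.2 and the build mm9, per the submitters' processing notes. Which transcript release and strand option were used is not given. The deposited TPM and estimated counts were used as they stand. Of 88943 transcripts, 78030 (87.73%) were tied to 28563 genes by identifier in GENCODE M21 (GRCm38). As this is not the submitters' build, no coordinates are given. TPM was summed per gene over tied transcripts with Python 3.11.15 and pandas 2.3.3, checked on simulated tables, and described as mean ± SD. No test was run, and values of the other libraries are given as description only.

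The 765 listed genes (752 matched) sit in 36 lists and 25 families, chosen with earlier results of these data known. Named genes are the 25 highest, the 5 highest of each list (10 for transcription factors, ligands and receptors), cell type and chamber markers, all family members, and the 10 largest ratios of highest to lowest library above a mean of 10 TPM. Gene models without a descriptive symbol were passed over, except Gm10222, and genes of the Y chromosome were left out of the ranking of ratios. Some genes under this rule are not reported here. Other genes named in a list were added after their values were seen. Alternatives were other thresholds, rescaling, counts, protein-coding transcripts only, other pseudocounts and leaving out each library. Transcript choice in genes outside the contractile lists was added after the data were seen.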

Additional observations from a re-analysis of the deposited data

Results flagged for a closer look

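With 3 libraries in the group, no library was tested for standing apart. A signal was found in rows of the tables that enter no gene level: 73 transcripts tied to no gene had a mean of at least 100 TPM in WT. The highest of them, 159 bases long, stood at 6204 TPM, above all but a few nuclear genes. A total of 238 tied transcripts or genes had an untied twin of the same length and the same estimated counts, and the 251 twins summed to 2074 TPM.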

How the results depend on the processing

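Leaving out each library in turn moved none of the 24 main values by over 1.5 times. A mean of 3 values cannot rise by more than that when 1 is left out, so uneven values pass this limit too. Among them were the Hbb-y share of beta-like globins (28.6, 66.6 and 36.4%) and the macrophage sum (132, 255 and 145 TPM). Of 450 listed genes with a mean of at least 10 TPM, leaving out a library moved 3 by over 1.5 times: Spp1 stood at 2.56 and Hbb-bh1 at 51.2 TPM without WT 2, and Sln at 7.58 TPM without WT 1. It moved 4 of 182 genes from 1 to 10 TPM and 37 of 121 genes under 1 TPM by over 1.5 times. The count of genes at 1 TPM stayed within 1.5 times under the 6 other settings tried. Rescaling TPM over tied nuclear transcripts lowered the share of the 50 highest genes to 19.03% and raised levels: thick filament genes summed to 35182 TPM, thin filament genes to 31143, transcription factors to 4373, ligands to 10075, endothelial markers to 1721, epicardial markers to 302, cushion and fibroblast markers to 3390, smooth muscle markers to 2143 and erythroid markers to 24644 TPM. By estimated counts the 50 highest genes took 17.2%, Tnni1 69.8% of troponin I, Actc1 88.4% of actins, Ldha 71.3% of lactate dehydrogenase and Ttn-201 91.1% of Ttn. Over protein-coding transcripts alone Tnni1 held 67.8%, thin filament genes summed to 22562, transcription factors to 3074 and cushion and fibroblast markers to 1936 TPM, and 154 of 764 single genes moved by over 1 SD. Rescaling leaves out the mitochondrial messages and raises nuclear levels by construction, and the causes of the other shifts were not tested. No paired analysis was possible because the results come from no test. Levels below the floor, and genes with few of their annotated transcripts in the tables, are not measured by these data.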

Other observations

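Imprinted growth genes were abundant in WT ventricle. Of 19 imprinted genes found, 17 reached 10 TPM, against 29.7% of all genes. Beside Igf2, Gnas, a G protein subunit, was at 1262, 1147 and 1303 TPM, Grb10, a growth-restraining adaptor, at 587, 601 and 581 TPM, Mest at 409.8, 534 and 537 TPM and Plagl1, a zinc-finger factor, at 372, 379 and 390.0 TPM. Phlda2, known from placenta, was at 0.144 TPM. Dlk1, a growth-related membrane protein, was at 48, 63.3 and 79 TPM.

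Matrix of the basement membrane was led by Sparc, a collagen-binding glycoprotein, at 1007, 1008 and 1091 TPM, with the collagen IV chains Col4a1 and Col4a2 at 225 ± 16.4 TPM and 130.4 ± 7.4 TPM and the laminins Lamc1 and Lamb1 at 135 ± 10 TPM and 126 ± 3.8 TPM. Lmnb1, a nuclear lamin of embryonic cells, was at 161 ± 9.15 TPM, above Lmna, the lamin of mature muscle, at 53.6 ± 2.11 TPM. Immediate early and heat shock genes can respond within minutes to handling of tissue. Of 11 listed, 9 reached 1 TPM, against 60.9% of protein-coding genes, and 6 reached 10 TPM, against 29.7% of all genes. Fos was at 2.85, 3.24 and 2.44 TPM and Jun at 41.1, 39.7 and 39 TPM. Egr1 was at 10, 10.6 and 12.6 TPM and Hspa1b at 0.906, 1.11 and 1.06 TPM.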
